A study of Mus musculus with 9 samples.

Results

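ISG15 is a small ubiquitin-like protein that interferon-treated cells attach to many other proteins, and 4 of the 5 genes examined here encode the machinery that handles it in the mouse. Uba7 encodes the E1 enzyme that activates ISG15, Ube2l6 the E2 enzyme that carries it, Herc6 the main mouse E3 ligase that places it on target proteins, and Usp18 the protease that removes it. Isg15 itself encodes the modifier. All 5 genes are known targets of type I interferon signalling, in which the receptor IFNAR activates transcription factors that bind interferon-stimulated response elements in promoters. USP18 is also known to bind the IFNAR2 chain and to dampen that receptor. In macrophages, TLR4 is a receptor that can start the same programme by inducing interferon beta.

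The transcript levels of these genes were followed in macrophages grown for 7 days with M-CSF from the bone marrow of BALB/c mice aged 8 to 10 weeks, kept overnight in 1% serum. The 3 conditions were profiled on 3 arrays each. TNC + TLR4i cells received 3 µM TAK-242, a small-molecule TLR4 inhibitor, for 1 h, followed by 6 h with recombinant TNC (tenascin-C, a glycoprotein of the extracellular matrix) at 2 µg/ml. TNC + vehicle cells received 0.1% DMSO for 1 h and then the same TNC for 6 h, and untreated cells are described with no addition. No group with DMSO alone, TAK-242 alone or endotoxin was analysed here. A difference from untreated cells therefore holds TNC together with DMSO, the vehicle control for the inhibitor, or with the inhibitor. The arrays are called biological replicates, but it is not said whether they came from separate mice, and p-values measure the spread between these samples only.

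Members were the probe sets that the array's annotation assigns to 1 gene symbol and that symbol alone, for Isg15, Uba7, Ube2l6, Herc6 and Usp18. The rule found 9 of 34945 such probe sets: 3 for Uba7, 1 for Ube2l6, 4 for Herc6 and 1 for Usp18. These stand for 4 of the 18193 genes measured. Isg15 had 0, because its probe set 1431591_s_at is annotated to Isg15 and to the pseudogene Gm9706 together. The values of that shared probe set are given below under both names and are not counted as those of Isg15. A gene with several probe sets was represented by the brightest, which was 1426970_a_at for Uba7 and 1438037_at for Herc6. On GRCm38.p6, Isg15 lies at chr4:156199424-156200818, Uba7 at chr9:107975567-107984056, Ube2l6 at chr2:84798828-84810003, Herc6 at chr6:57580992-57665136 and Usp18 at chr6:121245906-121270917, and Gm9706 at chr17:46406981-46407624.

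The 150 bases before the annotated start of each gene are shown because these promoters are the place where the interferon-activated factors are known to act. The sequences are from RefSeq on GRCm38.p6, written 5′ to 3′ on the strand of the gene, for the 4 of 5 genes that the promoter table held. Capitals mark the letters GAAANNGAA, the core of the interferon-stimulated response element, searched on both strands and allowed to overlap.
Isg15 (chr4:156200819-156200968, minus strand): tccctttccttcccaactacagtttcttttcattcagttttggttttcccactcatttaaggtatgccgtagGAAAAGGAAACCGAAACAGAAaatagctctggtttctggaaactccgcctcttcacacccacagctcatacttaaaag
Uba7 (chr9:107975417-107975566, plus strand): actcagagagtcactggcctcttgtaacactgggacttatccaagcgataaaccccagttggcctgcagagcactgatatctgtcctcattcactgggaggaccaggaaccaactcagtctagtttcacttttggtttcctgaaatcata
Ube2l6 (chr2:84798678-84798827, plus strand): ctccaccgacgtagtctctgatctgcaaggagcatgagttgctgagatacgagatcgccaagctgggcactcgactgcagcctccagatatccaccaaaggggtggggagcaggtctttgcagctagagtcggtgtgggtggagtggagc
Herc6 (chr6:57580842-57580991, plus strand): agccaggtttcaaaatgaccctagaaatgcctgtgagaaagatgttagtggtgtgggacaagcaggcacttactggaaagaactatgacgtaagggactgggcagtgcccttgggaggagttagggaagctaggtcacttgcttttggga

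The Isg15 stretch held 3 overlapping GAAANNGAA matches, which together ran from 78 to 58 bases before the start. The Uba7, Ube2l6 and Herc6 stretches held 0, and the STAT motif TTCNNNGAA was found in 0 of the 4. Among all 32851 promoters in the table, 3.95% held GAAANNGAA and 4.09% held TTCNNNGAA in the same 150 bases. A match is a description of the letters, and a stretch without one says only that these letters are not in that window.

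Each value below is the deposited log2 signal of a probe set on 1 array. Values over all probe sets and arrays lay between 5.44 and 14.69 with a median of 6.73. Signals near the low end change little even where a transcript does, so folds of dim genes are understated. Changes are measured between arrays for 1 probe set. Levels of different probe sets serve only to pick a gene's brightest one and to place genes on the overall range, as a rough guide. A gene or probe set was called where limma's moderated test, with Benjamini-Hochberg adjustment over all 45037 probe sets, gave an adjusted p under 0.05 and the change was at least 1.5-fold.

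All 4 measured genes of the ISG15 pathway rose in TNC + vehicle cells relative to untreated cells, and all 4 fell in TNC + TLR4i cells relative to TNC + vehicle cells. Herc6 and Usp18 changed most, and Uba7 and Ube2l6 changed less. In TNC + TLR4i cells, Herc6 and Usp18 lay below their untreated level. The changes of Uba7 and Ube2l6 from untreated cells did not pass the test with the main settings. The 3 comparisons share arrays in pairs, so they are not independent of each other.

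**Figure D1:**
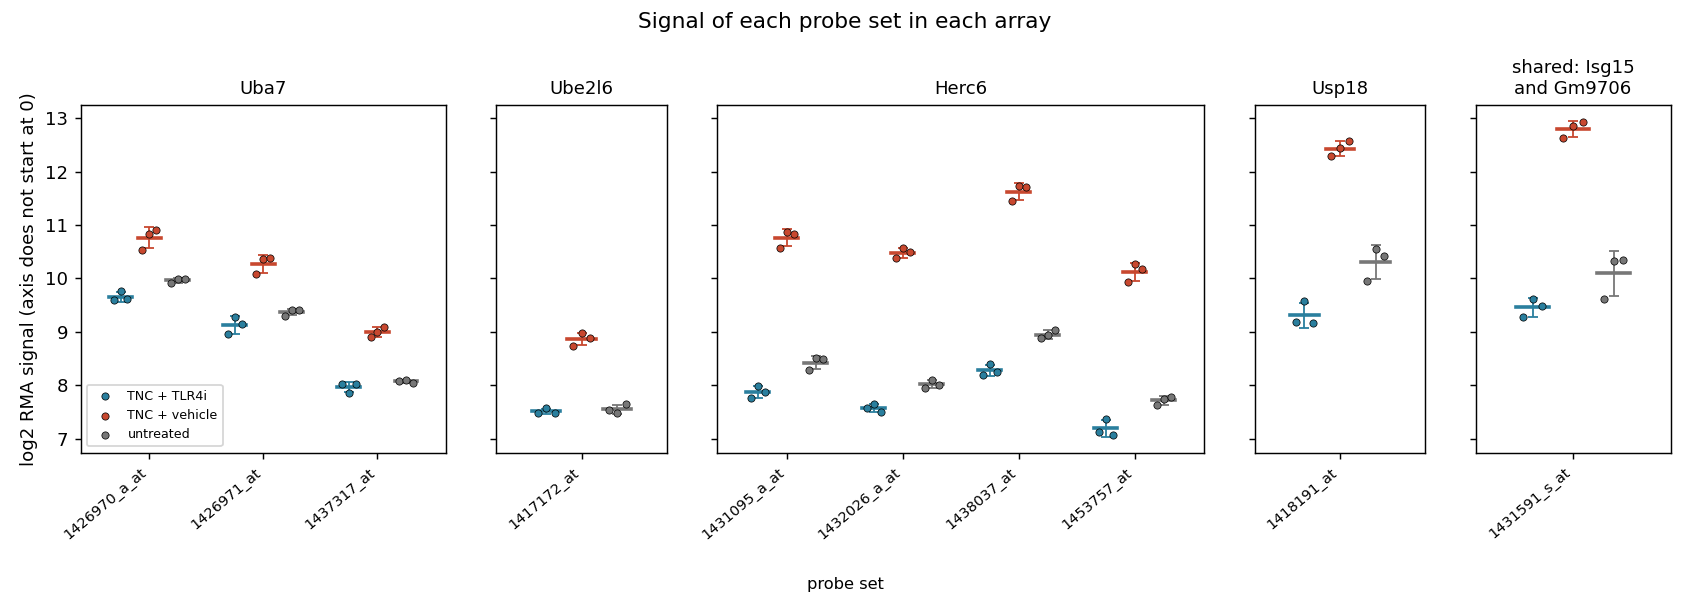
Log2 signal on each array (vertical axis) for every member probe set and for the probe set shared by Isg15 and Gm9706, with TNC + TLR4i, TNC + vehicle and untreated arrays from left to right. Points are arrays, lines are means and bars are SD (n = 3). The TNC + vehicle arrays stood above both other groups on every probe set drawn, as for Usp18 with 12.28 to 12.56 against 9.16 to 9.57 with TLR4i and 9.95 to 10.56 untreated.

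Uba7, the activating enzyme at the head of the pathway, read 9.59, 9.77 and 9.61 in TNC + TLR4i cells, 10.53, 10.84 and 10.91 in TNC + vehicle cells and 9.92, 9.99 and 9.98 in untreated cells on its brightest probe set. The TNC + vehicle arrays were the highest, the TNC + TLR4i arrays the lowest, and no group overlapped another. The group means were 9.66 ± 0.10, 10.76 ± 0.20 and 9.96 ± 0.04 in that order (SD, n = 3 each).
Uba7 was 1.74-fold higher in TNC + vehicle cells than in untreated cells, a log2 change of 0.80 ± 0.093 (SE; limma adjusted p = 5.75e-05). It was 2.15-fold lower in TNC + TLR4i cells than in TNC + vehicle cells, a log2 change of -1.11 ± 0.0978 (adjusted p = 4.21e-06). Its other probe sets gave 0.90 and 0.92 for the first comparison and -1.14 and -1.03 for the second, and all were called. Uba7 had the smallest rise of the 4 genes.

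Ube2l6, the conjugating enzyme that takes ISG15 from UBA7, read 7.48, 7.57 and 7.49 in TNC + TLR4i cells, 8.74, 8.98 and 8.88 in TNC + vehicle cells and 7.53, 7.48 and 7.64 in untreated cells. The TNC + vehicle arrays stood apart, and the TNC + TLR4i arrays overlapped the untreated ones. Its means were 7.51 ± 0.05, 8.86 ± 0.12 and 7.55 ± 0.08 in that order (SD, n = 3 each). It was 2.49-fold higher in TNC + vehicle cells than in untreated ones (log2 change 1.32 ± 0.0789, adjusted p = 2.62e-07). It was 2.56-fold lower in TNC + TLR4i than in TNC + vehicle cells (log2 change -1.36 ± 0.0763, adjusted p = 8.36e-08).

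Herc6, the ligase, read 8.19, 8.40 and 8.25 in TNC + TLR4i cells, 11.44, 11.73 and 11.71 in TNC + vehicle cells and 8.88, 8.93 and 9.03 in untreated cells on its brightest probe set. The groups did not overlap, and the TNC + TLR4i arrays were again the lowest. Its means were 8.28 ± 0.11, 11.63 ± 0.16 and 8.95 ± 0.08 in that order (SD, n = 3 each).
Herc6 was 6.40-fold higher in TNC + vehicle cells than in untreated ones (log2 change 2.68 ± 0.0863, adjusted p = 3.02e-09), which was the highest rise among the 4 genes. It was 10.2-fold lower in TNC + TLR4i than in TNC + vehicle cells (log2 change -3.35 ± 0.09, adjusted p = 1.94e-10). The other 3 Herc6 probe sets rose by 2.34 to 2.46 on the log2 scale in TNC + vehicle cells and changed by -2.94 to -2.89 in TNC + TLR4i cells relative to TNC + vehicle cells, so the 4 probe sets gave the same order of groups.

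Usp18, the protease that removes ISG15, read 9.18, 9.57 and 9.16 in TNC + TLR4i cells, 12.28, 12.44 and 12.56 in TNC + vehicle cells and 9.95, 10.56 and 10.41 in untreated cells. The groups did not overlap, and the untreated arrays were more spread than those of either TNC group. Its means were 9.31 ± 0.23, 12.43 ± 0.14 and 10.31 ± 0.31 in that order (SD, n = 3 each). It was 4.36-fold higher in TNC + vehicle cells than in untreated ones (log2 change 2.12 ± 0.133, adjusted p = 3.57e-07). It was 8.71-fold lower in TNC + TLR4i than in TNC + vehicle cells (log2 change -3.12 ± 0.111, adjusted p = 1.81e-09).

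The probe set shared by Isg15 and Gm9706 read 9.28, 9.62 and 9.48 in TNC + TLR4i cells, 12.63, 12.85 and 12.93 in TNC + vehicle cells and 9.61, 10.33 and 10.34 in untreated cells. Its signal cannot be divided between the modifier gene and the pseudogene. It was 6.54-fold higher in TNC + vehicle cells than in untreated ones (log2 change 2.71 ± 0.164, adjusted p = 2.78e-07). Between TNC + TLR4i and TNC + vehicle cells its log2 change was -3.35 ± 0.0997 (adjusted p = 4.87e-10). The probe set annotated to Gm9706 alone, 1453939_x_at, changed by 2.03 and -2.47 in the same comparisons. Whether its probes also bind Isg15 RNA was not tested, so its changes cannot be assigned to the pseudogene alone.

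Against the background of all genes, 3.74% were called higher and 4.05% lower in TNC + vehicle than in untreated cells, and 4 of 4 members were higher. In TNC + TLR4i relative to TNC + vehicle cells, 4.05% of genes were called lower and 4.25% higher, and 4 of 4 members were lower. By probe set, 9 of 9 were called higher in TNC + vehicle cells than in untreated ones, where 2.89% of all were, and 9 of 9 were called lower in TNC + TLR4i than in TNC + vehicle cells, where 3.12% were. The 3 TNC + vehicle values all lay above the 3 untreated values in 9 of 9 member probe sets and in 16.8% of all. The 3 TNC + TLR4i values all lay below the 3 TNC + vehicle values in 9 of 9 member probe sets and in 16% of all. The 9 probe sets stand for 4 genes, so counts by probe set are not of independent readings. In bulk RNA, fewer cells that carry a transcript and less RNA per cell cannot be told apart.

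**Figure D2:**
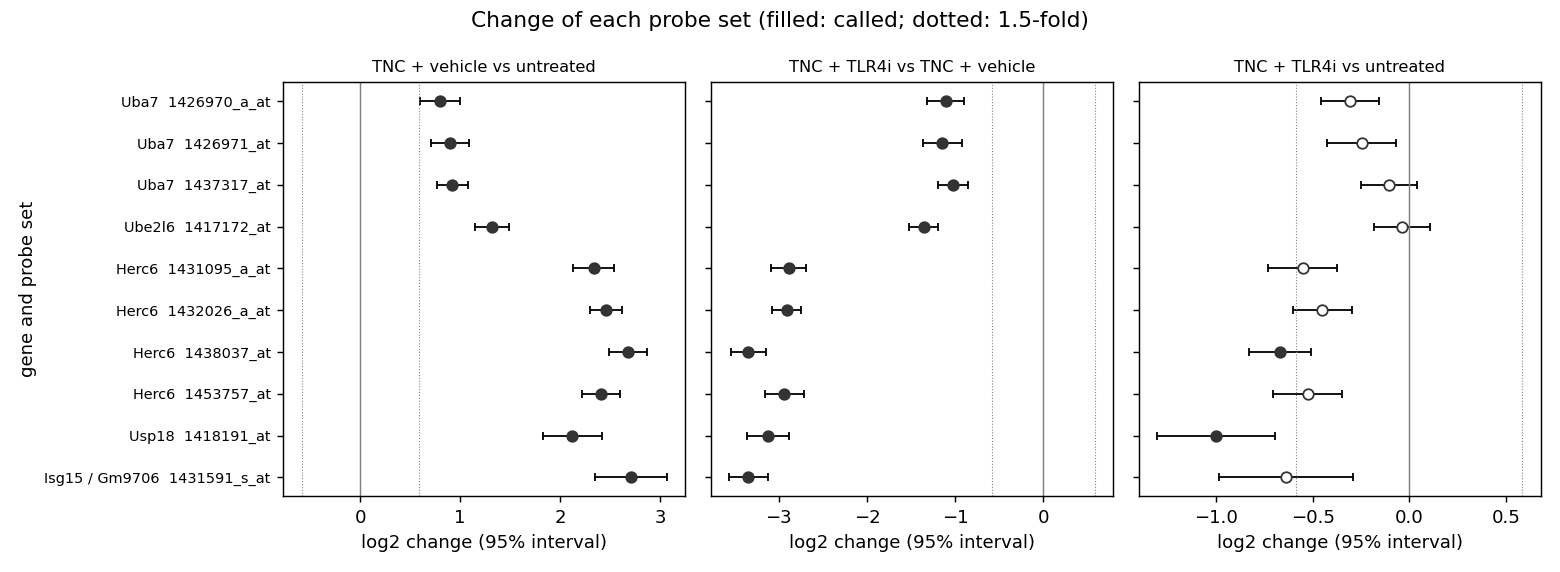
Log2 change (horizontal axis) of each member probe set and of the shared Isg15 and Gm9706 probe set in the 3 comparisons. Points are limma estimates, bars are 95% intervals, filled points were called and dotted lines mark 1.5-fold. All 4 genes lie to the right for TNC + vehicle against untreated and to the left for TNC + TLR4i against TNC + vehicle. In TNC + TLR4i against untreated the estimates run from -0.04 for Ube2l6 to -1.0 for Usp18.

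Usp18 was 2.00-fold lower in TNC + TLR4i than in untreated cells (log2 change -1.0 ± 0.141, 95% interval -1.31 to -0.69, adjusted p = 0.00678). Herc6 was 1.59-fold lower (log2 change -0.67 ± 0.0731, interval -0.83 to -0.51, adjusted p = 0.00189). The other 3 Herc6 probe sets changed by -0.55, -0.45 and -0.53 with adjusted p between 0.00855 and 0.0125, which passed the test but not the 1.5-fold minimum.
Uba7 gave a log2 change of -0.31 ± 0.0688 (interval -0.46 to -0.16) that did not pass after adjustment (adjusted p = 0.0885), and its other probe sets gave -0.25 and -0.11. Ube2l6 gave -0.04 ± 0.0673 (interval -0.18 to 0.11, adjusted p = 0.948). The shared Isg15 and Gm9706 probe set gave -0.64 ± 0.159 (adjusted p = 0.152). The intervals of Usp18 and Ube2l6 do not meet, but the difference between genes was not itself tested.

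Thus 2 of 4 members were called lower in TNC + TLR4i than in untreated cells, where 0.198% of genes were called lower and 0.0605% higher. By probe set, 2 of 9 were called, against 0.127% of all. The TNC + TLR4i and untreated arrays did not overlap in 8 of 9 member probe sets, with TNC + TLR4i lower, against 6.11% of all probe sets, and Ube2l6 was the exception. Herc6 has 4 of these 9 probe sets and Uba7 has 3, so the count is not of independent readings. The log2 gap between the groups was 0.148, 0.029 and 0.023 on the Uba7 probe sets. As a share of the log2 rise with TNC + vehicle, the fall with TLR4i came to 147% for Usp18, 125% for Herc6, 138% for Uba7 and 103% for Ube2l6 on their representative probe sets. The other Uba7 probe sets gave 127% and 112%, and the other Herc6 probe sets gave 118% to 124%. A fall larger than the rise means a level below the untreated mean, whether or not that difference passed the test. The Usp18 call was lost when limma's variance prior was allowed a trend and made robust (adjusted p = 0.208), and the Herc6 call was lost when its probe sets were averaged (log2 change -0.55). Uba7 passed limma's test with that same prior (adjusted p = 0.0128), but its log2 change of -0.31 stayed under 1.5-fold. It also passed without TNC + TLR4i replicate 2 (limma adjusted p = 0.0492, log2 change -0.36), again under 1.5-fold.

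Part of the spread within groups was common to the members. TNC + vehicle replicate 1 was the lowest of its group on 9 of 9 member probe sets, with a median difference of -0.277 from the other TNC + vehicle arrays on the log2 scale. The same array was higher than the other TNC + vehicle arrays for 4 of 4 endothelial markers, with Cldn5 at 7.72 against a mean of 6.56 and Pecam1 at 7.45 against 6.42. The mean of the 4 endothelial markers ranged from 6.24 to 6.31 in TNC + TLR4i arrays, from 6.39 to 7.29 in TNC + vehicle arrays and from 6.32 to 6.36 in untreated arrays. Without that array the changes in TNC + vehicle relative to untreated cells were 0.91 for Uba7, 1.38 for Ube2l6, 2.77 for Herc6 and 2.20 for Usp18, all at least as large as with it. Without it the changes in TNC + TLR4i relative to TNC + vehicle cells were -1.22, -1.42, -3.44 and -3.20 in the same order of genes.

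The cells carried the markers of macrophages. All 8 macrophage markers on the array lay above the 75th percentile of all values (8.13) on every array. They ran from Mertk at 8.59 to 9.02 up to Lyz2 at 14.53 to 14.57, with Csf1r, the M-CSF receptor, at 14.07 to 14.19. Their mean ranged from 12.20 to 12.28 in TNC + TLR4i arrays, 12.33 to 12.41 in TNC + vehicle arrays and 12.27 to 12.31 in untreated arrays. Markers of plasmacytoid dendritic cells, which are strong interferon producers, averaged 6.88 to 7.02, 7.00 to 7.20 and 6.77 to 7.01 in the same order of groups, near the median of all probe sets, and 0 of them were called. Fibroblast markers were above that median, with means of 9.99 to 10.20, 10.15 to 10.32 and 10.12 to 10.26 in the same order, and 0 of 4 were called. These means cover unlike markers, with Col1a2 bright at 13.12 to 13.37 over the arrays and Pdgfra at 8.29 to 8.75. Over all marker lists, the genes called in TNC + vehicle relative to untreated cells or in TNC + TLR4i relative to TNC + vehicle cells were Fcgr1, an Fc receptor of macrophages, with 0.94 and -1.15, and in the second of these comparisons also endothelial Cdh5 with -0.63 and erythroid Epor with 0.62. The part of any minor cell type in the changes was not tested.

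Upstream of the members, the list of interferon beta, its receptor chains, kinases and ISGF3 and IRF factors had 10 of 11 genes measured. Of these, 3 were called higher and 0 lower in TNC + vehicle relative to untreated cells, and the same 3 genes, Stat2, Irf1 and Irf7, fell in TNC + TLR4i relative to TNC + vehicle cells. Of all genes, 3.74% were called higher in the first comparison and 4.05% lower in the second. The median log2 changes of the list were 0.24 and -0.31, against 0.01 and 0.00 over all genes. Stat2, a subunit of ISGF3, averaged 8.46 ± 0.15 in TNC + TLR4i, 10.90 ± 0.09 in TNC + vehicle and 8.98 ± 0.24 in untreated cells (SD, n = 3 each), and changed by 1.91 with TNC + vehicle (adjusted p = 1.6e-07). Irf1 and Irf7, transcription factors of the interferon response, rose by 1.32 and 1.33.
The receptor chains changed in opposite directions and neither reached 1.5-fold, with 0.42 for Ifnar1 (adjusted p = 0.000389) and -0.47 (adjusted p = 0.000556) for Ifnar2, the chain that USP18 binds. Ifnb1, which encodes interferon beta, read near the low end of the scale at means of 6.31, 6.55 and 6.37 in TNC + TLR4i, TNC + vehicle and untreated cells. Its change in TNC + vehicle relative to untreated cells was 0.18 (adjusted p = 0.0807), and its change in TNC + TLR4i relative to TNC + vehicle cells was -0.24 (adjusted p = 0.0183, under 1.5-fold). In TNC + TLR4i relative to untreated cells, 0 of the 10 were called by limma, and 3 were lower at an unadjusted p under 0.05, where 4.63% of all genes were.

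None of the other enzymes reported to act on ISG15 reached 1.5-fold. Of 2 other reported ligases, Trim25 gave 0.39 (limma adjusted p = 0.00209) and Arih1 -0.12 (adjusted p = 0.206) in TNC + vehicle relative to untreated cells. Trim25 gave -0.44 in TNC + TLR4i relative to TNC + vehicle cells (adjusted p = 0.00077). Of 5 other reported ISG15 proteases, the changes in TNC + vehicle relative to untreated cells ran from -0.28 for Usp2 (adjusted p = 0.02) to 0.27 for Usp21 (adjusted p = 0.0474), and the other 3 did not pass the test. At an adjusted p under 0.05 and any fold, 12.1% of all genes were higher and 16% lower in that comparison. Free ISG15 outside cells is known to bind an integrin made of the chains encoded by Itgal and Itgb2. Itgal averaged 9.305 ± 0.288 in TNC + TLR4i, 10.729 ± 0.513 in TNC + vehicle and 9.453 ± 0.049 in untreated cells (SD, n = 3 each), a wide spread in both TNC groups. It was 2.42-fold higher in TNC + vehicle cells than in untreated ones (log2 change 1.28 ± 0.187, SE; limma adjusted p = 0.000346). It changed by -1.42 ± 0.208 in TNC + TLR4i relative to TNC + vehicle cells (adjusted p = 0.000277). Itgb2 gave -0.24 and 0.33 and was not called.

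Among 9 measured genes of 12 whose proteins are reported to carry ISG15, 2 rose in TNC + vehicle relative to untreated cells and 0 fell, and the list's median was 0.10. These were Eif2ak2, the double-stranded RNA kinase PKR, at 1.54, and Ddx58, the RNA sensor RIG-I, at 1.42. Of all genes, 3.74% were called higher and 4.05% lower in that comparison. Eif2ak2 and Ddx58 changed by -2.14 and -1.76 in TNC + TLR4i relative to TNC + vehicle cells. Eif2ak2 was also 1.52-fold lower in TNC + TLR4i than in untreated cells (log2 change -0.61, adjusted p = 0.0319), as Herc6 and Usp18 were. That call was lost, leaving 0 of 9 genes, at an adjusted p under 0.01, at a minimum fold of 2, with a test against 1.5-fold, with array weights, with averaged probe sets and with a trended, robust prior. It was also lost without TNC + TLR4i replicate 1 or 3 and without untreated replicate 2 or 3.

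Members of the wider enzyme families were set beside the ISG15 enzymes. Among 6 other activating enzymes for ubiquitin-like proteins, 0 were called in TNC + vehicle relative to untreated cells, and changes ran from -0.47 for Atg7 (adjusted p = 0.000966) to 0.36 for Uba3 (adjusted p = 0.00166), which passed limma's test but not the 1.5-fold minimum. The other 4 did not pass it, also at an unadjusted p under 0.05. Uba7 gave 0.80. Among 32 other Ube2 conjugating enzymes, 2 rose and 1 fell, where 3.74% of all genes were called higher and 4.05% lower. Ube2e2 rose by 1.26 (adjusted p = 3.51e-06), close to Ube2l6 at 1.32, Ube2f, an E2 for the modifier NEDD8, rose by 0.65, and Ube2h gave -0.67. Their changes in TNC + TLR4i relative to TNC + vehicle cells were -1.30, -0.62 and 0.76, and without TNC + vehicle replicate 3 only 1 of the 2 falls was called.

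Among the 4 other Herc ligases, 0 rose and Herc4 fell by 0.62 in TNC + vehicle relative to untreated cells, opposite to Herc6 at 2.68. Herc4 changed by 0.61 in TNC + TLR4i relative to TNC + vehicle cells, and both Herc4 calls were lost with cyclic loess and with averaged probe sets. Without untreated replicate 1, 0 of the 4 were called lower in TNC + vehicle relative to untreated cells, and without TNC + TLR4i replicate 2, 0 were called higher in TNC + TLR4i relative to TNC + vehicle cells. Among 47 other Usp proteases, 2 rose in TNC + vehicle relative to untreated cells and 0 fell, with the list's median at -0.02. Of all genes, 3.74% were called higher and 4.05% lower in that comparison. Usp25 rose by 0.98 and Usp42 by 0.59, against 2.12 for Usp18, and 1 of the 2 calls was lost without TNC + vehicle replicate 2 or 3 or untreated replicate 1. In TNC + TLR4i relative to TNC + vehicle cells 3 fell, Usp25 by 1.19, Usp12 by 0.76 and Usp42 by 0.61. There 4.05% of all genes were called lower. Other ubiquitin-like modifiers gave 0 calls among 8 measured genes of 14 in TNC + vehicle relative to untreated cells. At an adjusted p under 0.05 but under 1.5-fold, 2 were higher and 2 lower, and before adjustment 3 were higher and 2 lower. Of all genes, 12.1% were higher and 16% lower at an adjusted p under 0.05 and any fold. Before adjustment, at a p under 0.05, 17.8% of all genes were higher and 20.8% lower.

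**Figure D3:**
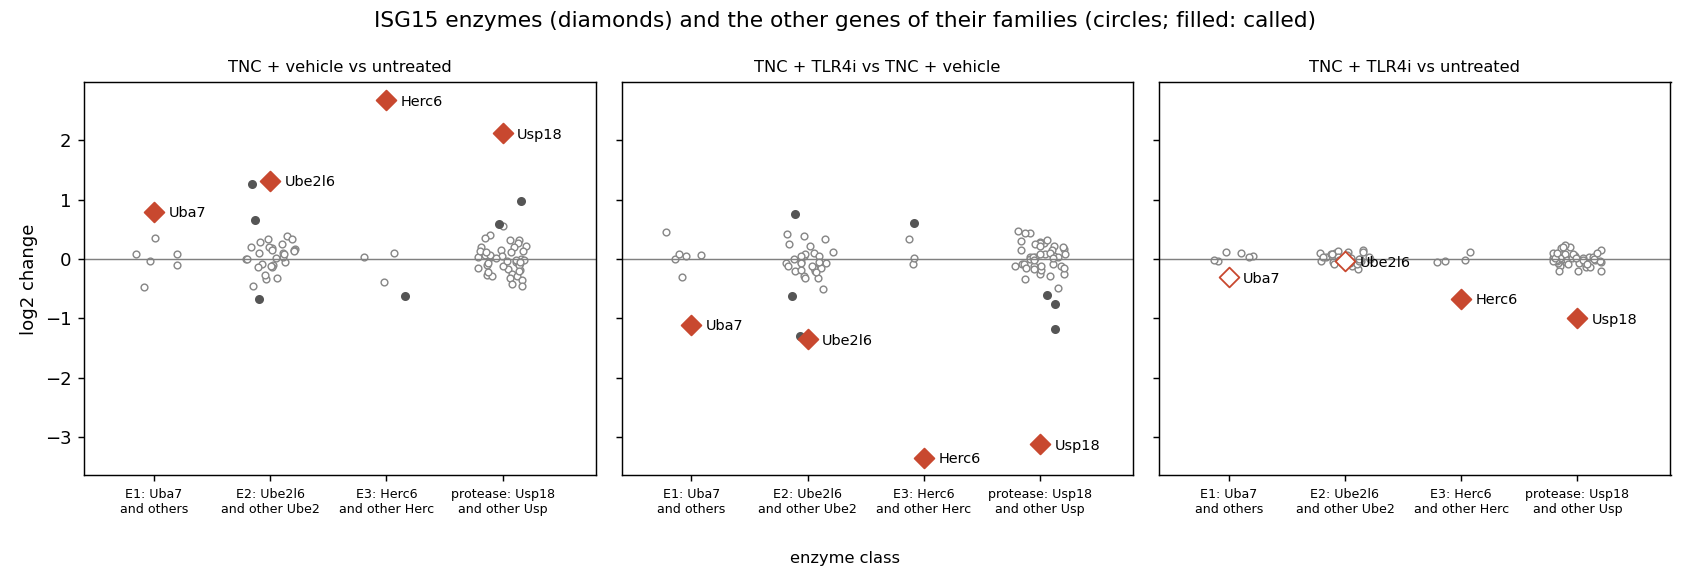
Log2 change (vertical axis) for Uba7, Ube2l6, Herc6 and Usp18 (diamonds) and for the other measured members of their enzyme families (circles), in 4 columns. The panels are TNC + vehicle against untreated, TNC + TLR4i against TNC + vehicle, and TNC + TLR4i against untreated. Filled symbols were called and the grey line marks no change. In the first panel, Herc6 at 2.68 and Usp18 at 2.12 stand above every other member of their families. Ube2e2 at 1.26 lies there beside Ube2l6 at 1.32.

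Across the 9 arrays, the 4 measured genes had Pearson correlations with each other of 0.946 to 0.985. These correlations are descriptions, since the points share arrays and fall into 3 treatment groups. The genes whose pattern was most like that of Usp18 were Rsad2 (r = 0.9997), Ifit3 (r = 0.9996) and Dhx58 (r = 0.9991), antiviral genes of the interferon response. They changed by 2.60, 2.39 and 1.74 in TNC + vehicle relative to untreated cells and by -1.24, -1.09 and -0.78 in TNC + TLR4i relative to untreated cells, a likeness to Usp18 that their choice by correlation fixes.
Herc6 was most like Ddx58 (r = 0.9994), Pnp (r = 0.9993), a purine salvage enzyme, and Snx2 (r = 0.9986), a sorting nexin. Ube2l6 was most like Stk38l (r = 0.9991), a kinase, Nab1 (r = 0.9988), a co-repressor of EGR factors, and Naa25 (r = 0.9986), a subunit of an N-terminal acetyltransferase. Uba7 was most like Synj1 (r = 0.9955), Fnbp4 (r = 0.9954) and Cd47 (r = 0.9953), whose rises of 0.33, 0.45 and 0.37 with TNC + vehicle were under 1.5-fold.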

How the data were processed

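RNA from 9 macrophage cultures, 3 in each group, was hybridised to whole-genome Affymetrix mouse expression arrays. The deposited values are log2 signals that the authors made by robust multi-array averaging (RMA) in Chipster, so background correction, quantile normalization and summary of probes preceded this work, and quantile normalization can mask a shift of all transcripts. Of 45101 probe sets, 64 controls were left out. GEO's platform annotation gave 1 symbol to 34945 of the remaining 45037, several to 932 and none to 9160. Each comparison was fitted on its 6 arrays by lmFit and eBayes of limma (version 3.58.1, under R 4.3.3), adjusted by Benjamini-Hochberg over 45037 probe sets, and called at an adjusted p under 0.05 and 1.5-fold. A gene took its brightest probe set by mean over all arrays. The number of arrays limits the precision. Named genes were the members, the 3 genes with the highest Pearson correlation to each member over the 9 arrays, up to 4 genes of each other list by size of change, and any gene of lists of up to 12 genes. The members and lists were chosen with earlier results of these data known. Alternatives covered scaling, variance model, replicate block, probe set summary, filter, thresholds and leaving out each array. The script was tested on simulated data.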

Additional observations from a re-analysis of the deposited data

How the results depend on the processing

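The 4 calls in TNC + vehicle relative to untreated cells and the 4 in TNC + TLR4i relative to TNC + vehicle cells stood under every alternative run, except that Uba7 was lost in the first comparison at a minimum fold of 2 and when limma tested against 1.5-fold (treat, adjusted p = 0.59). The 2 calls in TNC + TLR4i relative to untreated cells became 1 with a trended, robust prior, where Usp18 was lost, 1 with averaged probe sets, where Herc6 was lost, 0 at a minimum fold of 2 and 0 with treat. No member change turned its direction where the main one was called. Leaving out any 1 array left 4, 4 and 2 members called in the 3 comparisons. Over all probe sets, same-numbered arrays did not deviate together (correlations of -0.0961 to 0.136), so the numbers were not taken as pairs, and with the replicate number as a block 4, 4 and 2 members were called.

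Counts over all genes moved by over 1.5 times under some settings. In TNC + vehicle relative to untreated cells, where 680 genes rose and 736 fell, there were 2201 and 2915 with no minimum fold, 339 and 179 at a minimum fold of 2, 397 and 252 with treat, and 483 lower with averaged probe sets. In TNC + TLR4i relative to TNC + vehicle cells, where 774 rose and 736 fell, there were 3104 and 2076, 187 and 377, 267 and 441 under the first 3 of these, and 498 higher with averaged probe sets. In TNC + TLR4i relative to untreated cells, where 11 rose and 36 fell, there were 54 and 92, 2 and 6, and 1 and 0 under the same 3, and the lower genes numbered 20 with the trended, robust prior, 23 with averaged probe sets, 22 at an adjusted p under 0.01 and 20 to 23 without some single arrays. With averaged probe sets the Ube2 list had 1 higher and 0 lower in TNC + vehicle relative to untreated cells. The cause of these differences beyond the settings themselves was not tested.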

Other observations

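Within groups, the members moved together on other arrays too. TNC + TLR4i replicate 2 was the highest of its group on 8 of 9 member probe sets, with a median difference of 0.173 from the other TNC + TLR4i arrays on the log2 scale. TNC + TLR4i replicate 1 was the lowest of its group on 5 of 9, with a median difference of -0.103. Untreated replicate 1 was the lowest of its group on 7 of 9, with a median difference of -0.106. For Usp18 that array lay at 9.95, against 10.56 and 10.41 on the other untreated arrays. Replicate 1 was thus the array most often lowest for the member probe sets in each of the 3 groups, TNC + vehicle included, and replicate 2 the one most often highest, with 8 of 9 in TNC + TLR4i, 5 of 9 in TNC + vehicle and 5 of 9 in untreated arrays. The 9 probe sets stand for 4 genes with like patterns, so these counts are not independent and do not show that the numbers pair arrays. By median difference, untreated replicate 3 (0.0864) lay above untreated replicate 2 (0.0456). Without untreated replicate 1, Usp18 changed by 1.95 in TNC + vehicle relative to untreated cells and by -1.18 in TNC + TLR4i relative to untreated cells.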
